A study of Mus musculus with 14 samples.

Results

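The regions described here are those at which all 3 Early libraries held less accessible chromatin than every other library of the study. Each library's RPKM values (reads scaled to region length and library depth) were divided by that library's median over all regions, and the quotient is called the scaled value. A member is a region on an autosome other than chromosome 7, with a mean of at least 0.83 RPKM over the 14 libraries, whose highest Early scaled value lay below the lowest of the other 11. Of 191271 regions, 165228 were eligible by chromosome and level and 3320 were members, or 2.01% of the eligible regions. If all orders of the libraries were equally likely, 0.275% of regions would put the 3 Early libraries lowest, which is 453.9 regions. Regions lie on linked chromatin and libraries differ as wholes, so this figure is a scale for the count and not a test of it. Members were thus chosen by the measured scaled values of all 14 libraries, and their low Early values are described without a test.

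Open chromatin is DNA not tightly wrapped on nucleosomes, such as active promoters and enhancers, where transcription factors can bind. ATAC-seq reads it through a transposase that inserts sequencing adapters into exposed DNA, so a higher value means more insertions in a region. In hippocampal neurons, strong activity during learning induces immediate early genes, among them Arc, whose product acts at synapses, and activity is known to alter accessibility at many enhancers. Neurons active during learning and thought to carry the memory trace are called engram cells.

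All libraries came from hippocampal nuclei of ArcCreERT2 x R26R-STOP-floxed eYFP mice, genotype label +/+, in which a Cre recombinase under Arc control works only with tamoxifen and then turns on a yellow fluorescent reporter in cells where Arc was active. Every group had 4-hydroxytamoxifen 1 h before contextual fear conditioning and a foot shock on day 0, so all groups used here share both. All mice were in a dark room the day before, and by the protocol those kept on until day 5 went back into the dark for 48 h after conditioning, which separates Late and Reactivated from the groups of day 0. Basal (n = 4) and Early (n = 3) share the label of collection on day 0 without recall and differ in title alone; what sets Basal nuclei apart is not given in the labels. Late (n = 4) had no recall and was taken on day 5. Reactivated (n = 3) had recall on day 5, with replicates 1, 2 and 3 collected on days 5, 6 and 7. Nuclei were stained for NeuN, Arc and GFP and sorted, with tissue from 10 to 12 mice pooled to reach 10000 nuclei per condition, so 1 library stands for a pool. The labels do not tie single libraries to animals or sort gates, nor give age, and p-values measure the spread between libraries. Gene annotation or sequence of the mm9 build used by the table was not used here. Regions are therefore given by position, without genes or sequence, and marker genes of cell types were not checked.

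Recovered read totals were 46134253 to 47375212 in the Late libraries and 54257222 to 56251676 in those of Basal, Early and Reactivated. Each comparison with Late therefore also sets lower read totals beside higher ones. The share of reads inside regions, a measure of signal over background, spanned 21.3% to 24.0% for Reactivated, 18.4% to 20.02% for Late and 13.2% to 19.3% for Basal. Early replicate 1 had 13.8%, replicate 2 had 27.8% and replicate 3 had 18.1%, so Early held the most uneven libraries. Early replicate 2 also had the highest median of all libraries (1.71 RPKM, against 0.910 to 1.45 elsewhere), and dividing by the median lowers its values more than those of any other library. The choice of scaling therefore bears on which regions are members. On the deposited RPKM without scaling, 1254 eligible regions had all 3 Early libraries lowest, and 846 of the 3320 members (25.5%) were among them. The deposited value of Early replicate 1 lay below all other 11 at 3246 members, that of replicate 3 at 2508 and that of replicate 2 at 907. After median-of-ratios scaling 3528 regions met the rule, 3139 of them members, and after quantile normalization 3696, of which 3091 were members.

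Most members were regions of ordinary or raised accessibility in the other groups and of less than the library median in Early. For the Early libraries the median scaled value over members was 0.675, 0.716 and 0.741 (replicates 1, 2 and 3). For Reactivated it was 1.69, 1.31 and 1.31, for the 4 Basal libraries 1.28 to 1.45, and for the 4 Late libraries 1.12 to 1.31. Over all eligible regions the same median was 1.05 to 1.08 in each of the 14 libraries. Members under their library's median made up 83.7%, 75.9% and 76.2% in the 3 Early libraries, against 11.4% to 36.2% in the other 11. At 417 members (12.6%) all 3 Early libraries were under the library median while all other 11 were above it. The Early mean was below the mean of the other libraries by a median of 0.90 on the log2 scale (quartiles -1.09 and -0.73), and at 1215 members it was under 1/2 of that mean.

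**Figure D1:**
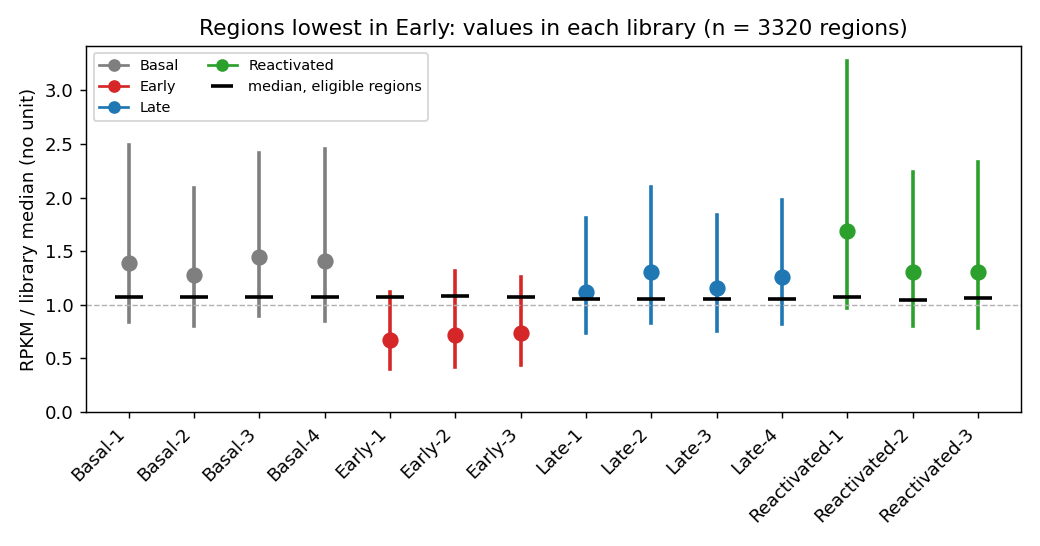
Scaled value (RPKM divided by the library median, linear axis from 0) of the 3320 members in each of the 14 libraries, with the median as a dot, the 10th to 90th percentile as a line and the median of all eligible regions as a black dash. The 3 Early medians, 0.675 to 0.741, lie under the dashes, and the other 11 medians, 1.12 to 1.69, lie over them. The rule itself fixes that Early lies under the other 11, but not where either lies against the dashes.

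The margin, the lowest of the other 11 scaled values divided by the highest Early value, was modest at most members. Its median was 1.11, and 735 members reached 1.25, 151 reached 1.5 and 9 reached 2. At 902 members it was under 1.05. Early replicate 1 was the lowest of the 14 libraries at 1606 members, replicate 2 at 931 and replicate 3 at 783. On the other side of the gap Late replicate 1 was most often the lowest of the 11 (872 members), followed by Late replicate 3 (606). The highest of all 14 was Reactivated replicate 1 at 1599 members, while Reactivated replicates 2 and 3 were highest at 125 and 127. The median member held 34, 61 and 45 reads in the Early libraries and 61 to 124 in the other 11. Under 10 reads in at least 1 Early library stood behind 292 members (8.80%), against 10.7% of eligible regions.

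The largest margin, 3.15, was at chr4:140513182-140513967, a region of 785 bases. Its scaled values were 0.164, 0.206 and 0.269 in Early, 0.872, 0.870, 0.903 and 0.972 in Basal, 0.948, 1.03, 0.850 and 1.01 in Late, and 1.31, 0.925 and 1.32 in Reactivated. The Early libraries held 7 to 15 reads there and the others 35 to 84, and the other 3 groups overlapped each other. At chr19:4231549-4232136 the Early libraries stood at 0.375, 0.275 and 0.257. Basal gave 1.06, 1.42, 1.45 and 1.39, Late 0.986, 1.40, 0.884 and 1.35, and Reactivated 1.70, 1.35 and 1.09, so the gap to the nearest library, Late replicate 3, was 2.36-fold.

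A further 3 of the 8 largest margins were on chromosome 17. At chr17:24300093-24301212, 1119 bases wide, Early held 0.400 ± 0.0666 (SD, n = 3), Late 1.04 ± 0.0327 (n = 4), Reactivated 1.56 ± 0.389 (n = 3) and Basal 1.90 ± 0.316 (n = 4). Every Late library, at 1.01 to 1.08, was below every Reactivated library, at 1.26 to 2.00. At chr17:36055923-36056502 the Early mean was 0.440 ± 0.0809 and the other groups averaged 1.73 ± 0.299 (Basal), 1.40 ± 0.259 (Late) and 1.71 ± 0.0682 (Reactivated). At chr17:32399879-32400322 the Early mean was 0.209 ± 0.0713 and those of the other groups 0.821 to 1.06, on 4 to 12 Early reads.

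The remaining 3 lay on chromosomes 3 and 9. At chr3:54153346-54153746 Early stood at 0.234 ± 0.0628, and the lowest other library was Late replicate 4 at 0.621. At chr9:121568749-121569153 Early stood at 0.233 ± 0.0562, with 4, 11 and 6 reads. At chr9:107470955-107472022 the 3 Early libraries were close together, at 0.395, 0.413 and 0.411, and the other 11 ranged from 0.868 to 1.70.

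**Figure D2:**
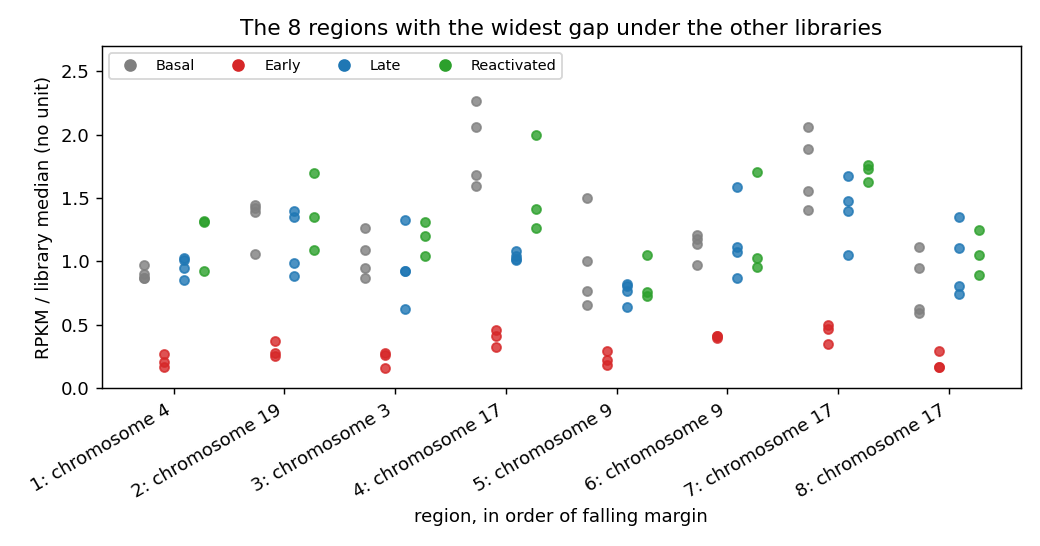
Scaled value (linear axis from 0) of every library at the 8 members of largest margin, with 1 dot per library coloured by group. In each of the 8 the Early dots lie under all others; over the 8 regions no Early dot is above 0.502 and no other dot is under 0.594.

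Of 2753 eligible regions with a mean of at least 4 RPKM, 21 were members (0.763%), and at the 6 highest the margins were 1.02 to 1.10. The highest mean, 5.41 RPKM, was at chr17:21081798-21083006, with scaled values of 2.02, 3.24 and 2.59 in Early and 3.47 to 6.50 in the other 11 libraries. At chr3:87981490-87982337 the Early values were 1.99, 3.02 and 2.93, with Late at 3.22 to 4.06, Basal at 3.37 to 5.90 and Reactivated at 4.95 to 8.67. In the next 4 regions by level, chr1:94830502-94831599, chr2:32143395-32143863, chr14:55727097-55727776 and chr8:87370333-87371371, Early means of 1.94 to 2.21 stood beside Late means of 2.86 to 3.12 and Basal means of 4.14 to 4.41. In all 4 Reactivated replicate 1 was the highest library, at 6.05 to 7.69. On this scale Late was nearest to Early at these 6 regions, with its mean below those of Basal and Reactivated in each. Low Late values at regions of high level were not particular to these 6. Over all regions the 90th percentile of scaled values was 1.79 to 1.82 in Late, 2.03 to 2.17 in Basal and 1.98 to 2.22 in Reactivated. The widest member, chr12:101437279-101440605 (3326 bases), had scaled values of 0.987, 1.15 and 1.13 in Early, 1.17 to 1.55 in Late, 1.69 to 2.34 in Reactivated and 2.12 to 2.66 in Basal. The next widest, chr8:123059742-123063003 and chr8:9769774-9773034, averaged 0.885 ± 0.0387 and 0.820 ± 0.0865 in Early against 1.11 ± 0.113 and 1.05 ± 0.0515 in Late.

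The threshold of the rule cut through a continuum. Just inside, at chr13:34221665-34223719, the highest Early and the lowest other library both rounded to 1.64, at chr17:29839896-29840955 both to 0.728, and at chr5:147032264-147033250 both to 1.24. Just outside were chr16:17233132-17235838 (both 0.581), chr4:104401568-104402112 (both 0.633) and chr17:8717167-8720331 (both 0.800).

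Members were wider than other regions, a property the rule did not use. Their median width was 923 bases against 530 for eligible regions, and 44.2% were 1000 bases or wider against 18.0%. The share of eligible regions that were members rose with width from 0.406% under 200 bases to 6.06% at 1500 to under 2000 bases, and was 5.60% from 2000 bases up. The other lists made by an equal rule did not show this rise. Regions with the 3 Early libraries highest (1184 regions) had a median width of 566.5 bases and made up 0.447% to 0.862% of each width class. Regions with the 3 Reactivated libraries lowest (1641 regions) had a median width of 433 bases, and their share fell from 1.23% in the narrowest class to 0.487% in the widest. Wider regions hold more reads, which move with this pattern: members were 0.455% of regions with a mean under 20 reads and 5.78% of those with 100 to 149. Among regions of 100 to 149 mean reads, members were 3.92% of those from 500 to under 1000 bases wide and 6.55% of those 1000 or wider, and at 20 to 29 reads 0.786% of those under 500 bases and 0.725% of those from 500 to under 1000. How much of the width pattern goes with read number was not tested.

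**Figure D3:**
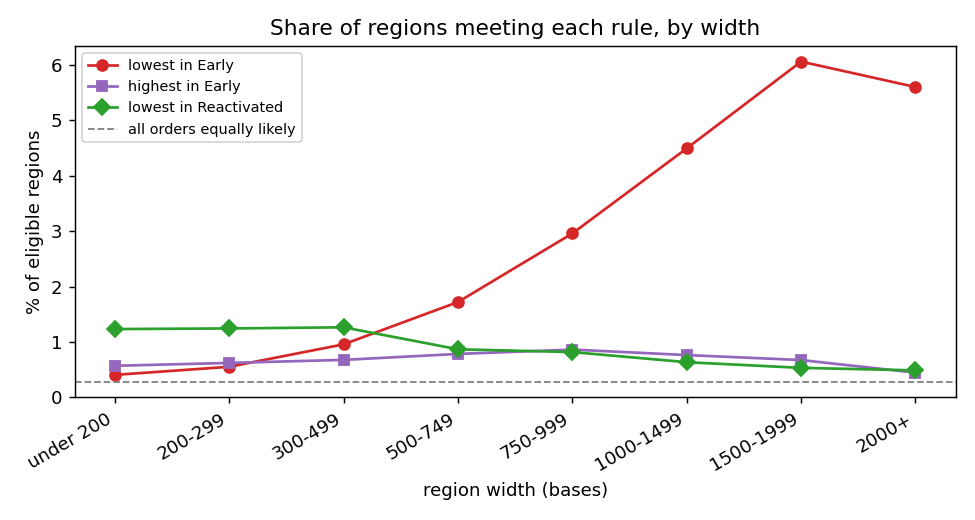
Percent of eligible regions (vertical axis) meeting each of 3 rules, by region width in bases (horizontal axis, unequal classes), with the dashed line at 0.275%, the share if all orders were equally likely. The line for lowest in Early climbs from 0.406% to 6.06%, while highest in Early and lowest in Reactivated stay between 0.447% and 1.26%.

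Members were unevenly spread over chromosomes. On chromosome 17, 275 of 3477 eligible regions were members (7.91%), on chromosome 11 411 of 7556 (5.44%) and on chromosome 19 130 of 3069 (4.24%). These 3 chromosomes, of which 11 and 19 are known as gene-rich, held 24.6% of members and 8.53% of eligible regions. At the other end stood chromosome 1 with 100 of 16095 (0.621%), chromosome 3 with 92 of 14455 (0.636%) and chromosome 6 with 104 of 11557 (0.900%). Chromosome 17 stood above chromosome 1 in both width classes: among regions of 1000 bases or more, members were 20.9% on chromosome 17 and 1.36% on chromosome 1, and among narrower ones 5.42% and 0.466%. On chromosome 17, regions with Early highest were 0.144% and those with Reactivated lowest 0.115%, each the smallest share of the 18 chromosomes. Chromosome 7, outside the rule, had 588 of 3422 regions of sufficient level (17.2%) with the same order of libraries.

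The remaining regions of chromosome 17 were also low in all 3 Early libraries, which was not so on chromosomes 11, 19 and 1. The median scaled value of its eligible regions that were no members stood at 0.798, 0.962 and 0.901 for the Early replicates, and at 0.984 to 1.19 for the other 11 libraries, so the groups did not overlap. On chromosome 11 the Early values, 0.949 to 1.04, overlapped Late at 1.01 to 1.07 and Basal at 1.04 to 1.10. On chromosome 19 Early stood at 0.912, 1.16 and 1.10, with replicate 1 the lowest and replicate 2 the highest of the 14 libraries. On chromosome 1 Early stood at 1.08 to 1.14 and the other 11 at 1.02 to 1.10.

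**Figure D4:**
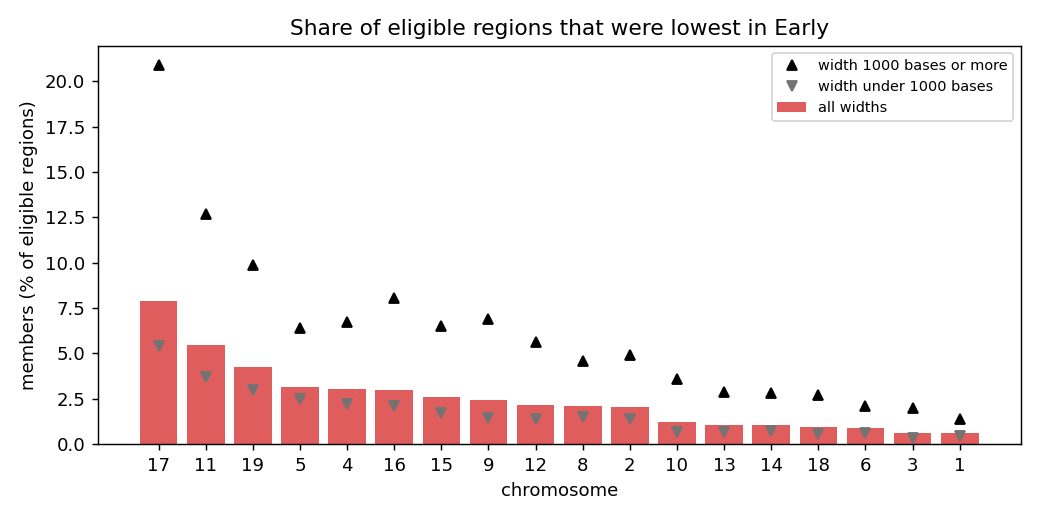
Members as percent of eligible regions on each chromosome in the rule (bars from 0), with the same share among regions of 1000 bases or more (upward triangles) and under 1000 bases (downward triangles). Chromosomes 17, 11 and 19 lead at 7.91%, 5.44% and 4.24%, and the wide class lies above the narrow one on each.

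Within chromosomes the members lay in clusters. Of 462 windows of 5 Mb with at least 50 eligible regions, 146 held no member, the median window had 0.466% members and 51 windows had over 10%, 7 of them on chromosome 17. In the window of chromosome 19 up to 5 Mb, 30 of 58 eligible regions were members (51.7%), and in the next, 5 to 10 Mb, 71 of 187 (38.0%). On chromosome 17 they were 42 of 89 at 20 to 25 Mb (47.2%) and 29 of 74 at 35 to 40 Mb (39.2%). Another member lay within 100 kb, centre to centre, of 73.6% of members, and a member lay that near to 13.2% of the other eligible regions. The median number of other regions within 100 kb was 14 for members and 20 for eligible regions.

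The stretch of 100 kb with the most members ran from 87261471 to 87357016 on chromosome 8. All of its 24 regions were eligible and 10 were members, with widths of 238 to 1887 bases and margins of 1.04 to 1.51. The other 14 were no members, yet all 14 had an Early mean below the mean of the other libraries. At chr8:87336990-87337407, the largest margin here, Early stood at 0.440, 0.361 and 0.580, Basal at 1.23, 1.05, 0.874 and 1.21, Late at 1.35, 1.89, 1.10 and 1.34, and Reactivated at 1.65, 1.45 and 1.53. At chr8:87297302-87298529 and chr8:87298620-87299771, which lie next to each other, the Early means were 0.713 ± 0.0276 and 0.576 ± 0.0794 and the lowest other libraries stood at 0.990 and 0.920. At chr8:87337994-87339881 the means were 0.726 ± 0.0630 in Early, 1.71 ± 0.161 in Basal, 1.08 ± 0.0772 in Late and 1.37 ± 0.233 in Reactivated. The low Early values thus reached along this whole stretch, on regions of differing width and level.

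Neighbours that the rule did not choose were lower in Early as well, the more so the nearer a member was. The log2 of the Early mean over the mean of the other 11 had a median of -0.59 for 62 such regions within 1 kb of a member, -0.53 at 1 to 5 kb, -0.48 at 5 to 20 kb, -0.36 at 20 to 100 kb, -0.16 at 100 to 500 kb and 0.15 beyond 500 kb. The value was under 0 at 93.5% of regions in the nearest class and 32.9% in the farthest. Each of the 18 chromosomes had a lower median within 100 kb than beyond 500 kb, by 0.42 to 0.71. Taken 1 at a time, Early replicates 1, 2 and 3 differed between near and far regions by -0.60, -0.51 and -0.46. The difference was -0.55 both on scaled values and on the deposited RPKM. Dividing a library by 1 constant moves near and far regions almost alike, so this equality is no check on the scaling. It is the same contrast as in the rule, in regions left out by it, and is given without a test.

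**Figure D5:**
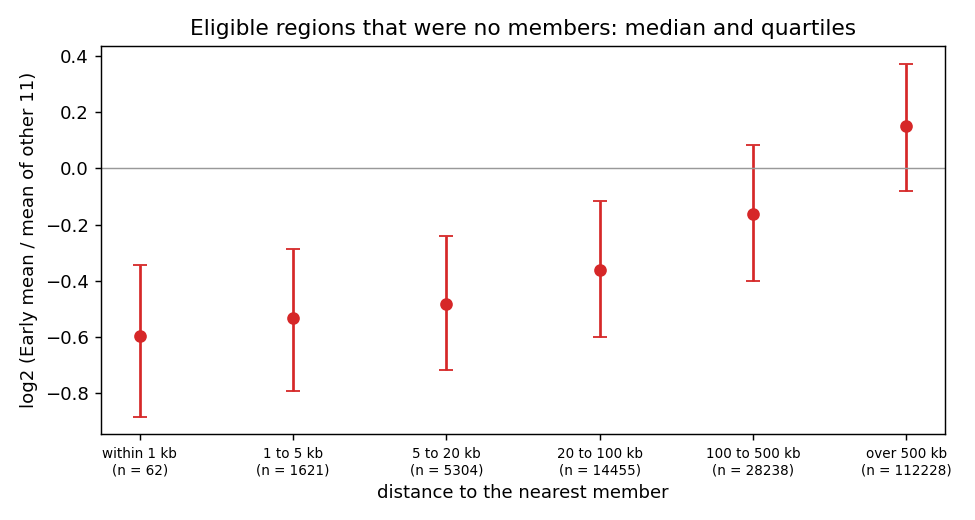
Median (dot) and quartiles (bars) of the log2 ratio of the Early mean to the mean of the other 11 libraries, for eligible regions that were no members, by distance to the nearest member. The median climbs from -0.59 within 1 kb to 0.15 beyond 500 kb.

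By library, the 1683 neighbours within 5 kb had median scaled values of 0.840, 0.813 and 0.892 in Early, 0.939, 1.14, 1.01 and 1.11 in Late, 1.22 to 1.43 in Basal, and 1.48, 1.19 and 1.19 in Reactivated. As at the members, on this scale, Early was lowest, Late next, and Basal and Reactivated above. Over all eligible regions that were no members these medians were 1.04 to 1.09 in every library.

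The comparisons that leave Early out are not fully independent of the rule either, which used the lowest value of the other 11 libraries in each region. A region could be a member only if none of the 11 reached down to Early, which favours regions that vary little among them. The ratio of highest to lowest of the 11 was 2.04 at the median member and 2.96 at the median eligible region. Values were compared as log2(scaled value + 0.5) in 1 limma fit of all 14 libraries over 172144 regions, with Benjamini-Hochberg adjusted p under 0.05 as the threshold. The pseudocount understates changes of low regions.

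Late against Basal asks what differs on day 5 from the libraries labelled Basal. Every Late library also had a lower read total than every Basal library. What part of any difference goes with read total was not tested. Members fell more often than they rose: 388 were lower and 34 higher in Late, against 16.5% lower and 14.2% higher among all tested regions, so 11.7% and 1.02% of members were both under the background. The median log2 fold change was -0.13 over members and -0.01 over all regions. This split rests on the scaling. On the deposited RPKM 122 members were higher and 11 lower (3.67% and 0.331%, against 23.9% and 6.03% of all regions), with medians of 0.16 over members and 0.28 over all regions. Quantile normalization gave 73 higher and 291 lower (2.20% and 8.77%, against 16.6% and 15.4%). Members thus stood below the median of all regions on each of these scales. Without Late replicate 3, Late replicate 1, Basal replicate 3 or Basal replicate 4 there were 214, 224, 263 or 279 calls in place of 422. These were 6.45%, 6.75%, 7.92% or 8.40% of members, in place of 12.7%. The share of all regions called fell too, from 30.7% to 22.4%, 23.3%, 24.9% or 26.1%. With Late entered as 1 averaged sample the medians stayed at -0.13 over members and -0.01 over all regions, which averaging the log2 values fixes.

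The largest fall, at chr1:75500320-75500435, was from 3.92, 2.14, 4.58 and 5.43 in Basal to 0.863, 1.26, 1.16 and 1.08 in Late (log2 fold change -1.45 ± 0.22 SE, limma adjusted p = 0.000679). Early stood lower still, at 0.798, 0.468 and 0.788, and Reactivated between, at 2.67, 1.55 and 1.77, but the region is 115 bases wide and rests on 5 to 36 reads per library. At chr4:132643237-132643410 the mean fell from 3.03 ± 1.19 in Basal to 0.954 ± 0.0240 in Late (log2 fold change -1.20, limma adjusted p = 0.00188). At chr5:144016503-144017080 it fell from 1.65 ± 0.281 to 0.502 ± 0.0680 (log2 fold change -1.09, limma adjusted p = 0.000562). These 3 regions were picked among called members without overlap, so every Basal library lies above every Late library by that choice. Their low Early values follow from the rule.

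The rises named for Late were picked in the same way, which sets its 4 libraries above all Basal libraries. The rule sets Early lower still. At chr3:55488881-55489349 Late stood at 2.16, 1.90, 2.12 and 2.26 against 1.03, 0.932, 0.909 and 0.779 in Basal (log2 fold change 0.89 ± 0.15 SE, limma adjusted p = 0.000949), with Early at 0.470, 0.483 and 0.258. At chr11:68850491-68851433 Late averaged 1.36 ± 0.209, Basal 0.573 ± 0.0716 and Early 0.290 ± 0.0724 (log2 fold change 0.79, limma adjusted p = 0.00118). At chr16:5912040-5912439 Late averaged 2.59 ± 0.395 and Basal 1.20 ± 0.291 (limma adjusted p = 0.00839). Reactivated was uneven at the last region, with replicate 1 at 3.17 and the others at 1.06 and 1.44. All 6 regions named for this comparison kept their direction under every alternative, and lost the call only with Late averaged to 1 sample.

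Reactivated against Basal sets libraries after recall beside Basal. Of the members 76 were higher (2.29%) and 49 lower (1.48%), against a background of 10.1% higher and 10.2% lower, and the median log2 fold change was 0.05 over members and 0.06 over all regions. The direction of that median depended on 1 library: without Reactivated replicate 1 it was -0.05 over members and 0.05 over all regions. The calls then turned to 19 higher and 56 lower (0.572% and 1.69%, against 7.64% and 8.15% of all regions). The deposited RPKM gave 531 higher and 1 lower (15.99% and 0.0301%, against 24.3% and 4.78% of all regions), with medians of 0.40 over members and 0.39 over all regions. Median-of-ratios scaling gave 51 and 65 (all regions 8.69% and 10.9%) and quantile normalization 43 and 38 (all regions 8.01% and 8.57%). With each library's in-region read share added as covariate, limma called 0 of all 172144 regions, members included, with 148 members at an unadjusted p under 0.05. That share is higher in each Reactivated library than in any Basal library.

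At chr1:193176772-193177037 the Reactivated libraries stood at 1.48, 1.65 and 1.68 and Basal at 0.587, 0.430, 0.458 and 0.720 (log2 fold change 1.01 ± 0.17 SE, limma adjusted p = 0.00307). Late ranged from 0.687, under the highest Basal library, to 1.29, and Early was lowest, at 0.114 to 0.284 on 2 to 7 reads. At chr2:25441978-25442145 the means were 1.59 ± 0.660 in Reactivated and 0.484 ± 0.150 in Basal (log2 fold change 1.05, limma adjusted p = 0.00487), on 1 to 28 reads. At chr15:81177639-81178305 they were 1.89 ± 0.234 and 0.814 ± 0.199 (log2 fold change 0.87, limma adjusted p = 0.00542). These 3 regions had their highest group mean after recall.

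Among the falls, chr6:113808664-113808829 went from 3.18 ± 0.509 in Basal to 1.36 ± 0.650 in Reactivated (log2 fold change -1.03, limma adjusted p = 0.00666) and chr6:23431353-23431732 from 1.66 ± 0.386 to 0.688 ± 0.134 (log2 fold change -0.85, limma adjusted p = 0.00442). The fall at chr10:109124197-109124341, from 2.36 ± 0.892 to 0.984 ± 0.0683 (log2 fold change -0.89, limma adjusted p = 0.0221), lost its call in 7 of 24 alternatives, among them without any 1 of the 3 Reactivated libraries. Late was low at chr6:23431353-23431732 too, at 0.655 to 0.821, so that there Basal alone stood high.

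Reactivated against Late sets libraries after recall beside Late libraries without it. Reactivated replicates 2 and 3 were also collected later than Late. Each Reactivated library was above every Late library in read total and in-region read share. What part of any difference goes with recall was not tested. Few members passed: 6 were higher (0.181%, background 0.695%) and 3 lower (0.0904%, background 0.366%). The split turned with the scaling, to 0 higher and 7 lower after quantile normalization (all regions 0.0587% and 0.338%), 5 and 6 with median-of-ratios (0.676% and 0.428%) and 1 and 2 on the deposited RPKM (0.0256% and 0.205%). The median log2 fold change was 0.20 over members and 0.04 over all regions, and 83.6% of members had a positive value against 56.1% of all regions. Without Reactivated replicate 1, the library that was highest at 1599 members, the median over members was 0.10. The 9 calls depended on settings: limma called 0 members with the replicate number as a block (578 at an unadjusted p under 0.05), 0 without Reactivated replicate 3 (740), and 0 with Late averaged to 1 sample (56), where 1 region of all 172144 passed. A fit of these 2 groups alone called 79 members (2.38%, against 3.78% of all regions). Without Basal replicate 1 or 4 there were 21 or 4 calls (0.633% or 0.120% of members, against 1.74% or 0.565% of all regions). Without Early replicate 1, 2 or 3 there were 41, 28 or 5 (1.23%, 0.843% or 0.151%, against 2.15%, 1.77% or 0.616%). Leaving out Late replicate 1, 2, 3 or 4 gave 3, 1, 2 or 2 (all regions 0.165%, 0.152%, 0.143% or 0.129%). Leaving out Reactivated replicate 1 or 2 gave 1 each (all regions 0.114% or 0.110%).

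The largest rise was at chr6:3150778-3151666, from 1.88, 1.51, 1.77 and 1.77 in Late to 3.00, 5.51 and 4.62 in Reactivated (log2 fold change 1.10 ± 0.18 SE, limma adjusted p = 0.0139). Basal stood at 2.96 to 3.72 there, so Late and Early were both low. The rises at chr2:30219350-30220285 (log2 fold change 0.85, limma adjusted p = 0.0336) and chr10:79577759-79578927 (0.74, limma adjusted p = 0.0378) were led by Reactivated replicate 1, at 5.70 and 5.35, with replicates 2 and 3 at 2.92 to 3.44 and Late at 1.79 to 2.32.

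The falls were at regions where Late alone was high. At chr4:114283922-114284489 Late stood at 1.40, 1.34, 1.44 and 1.29 and Reactivated at 0.433, 0.532 and 0.472 (log2 fold change -0.93 ± 0.15 SE, limma adjusted p = 0.0101), with Basal at 0.569 to 0.949 and Early at 0.324 to 0.373. At chr11:23612446-23612815 Late averaged 1.30 ± 0.213 and Reactivated 0.456 ± 0.0605 (log2 fold change -0.91, limma adjusted p = 0.0178). At chr1:161591065-161591664 the means were 1.93 ± 0.323 and 0.896 ± 0.238 (log2 fold change -0.80, limma adjusted p = 0.0406). In this comparison every one of the 6 named regions kept its direction in the 24 alternatives and lost its call in 4 to 14 of them.

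Across the groups other than Early, Late came nearest to Early at most members on each of 3 scalings, and Basal did on the deposited RPKM. After median-of-ratios scaling Late had the lowest mean at 2112 members (63.6%, eligible 32.4%). After quantile normalization it did at 1836 (55.3%, eligible 33.0%). On the scaled values Late had the lowest of the 3 group means at 2230 members (67.2%), against 34.98% of eligible regions, while Basal was lowest at 22.4% (eligible 41.4%) and Reactivated at 10.4% (eligible 23.7%). On the deposited RPKM Basal was lowest at 71.2% of members (eligible 64.5%) and Late at 26.2% (eligible 22.3%). On the scaled values Reactivated had the highest mean at 1823 members (54.9%, against 35.5% of eligible regions) and Basal at 1203 (36.2%, against 37.4%). These shares are descriptions over regions, many of which lie close together. Late also had the lowest read totals of the study, and the bearing of this on the shares was not tested.

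As a description of values the rule used, with no test, the median log2 difference of Early over members was -0.62 from Basal, -0.67 from Reactivated and -0.47 from Late. These are differences of log2(scaled value + 0.5). The median of -0.90 against the other 11 libraries given earlier is a ratio of means without a pseudocount, so the measures are unlike. All 3 comparisons share the Early libraries.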

How the data were processed

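One deposited table gives RPKM, reads scaled by the authors to region length and library depth, for 14 libraries at 191271 regions. The submitters' processing notes name the mm9 build and, as tools, DESeq2, DiffBind, MACS2, SAMtools and Bowtie2 2.0, without role or order; peak pooling, duplicate removal and cut-site shift are not given in the sources used here and set region borders and read numbers. RPKM multiplied by width gave whole reads in every library (tolerance 0.01), with 1 read as the lowest value. Scaling by the median, the rule and all counts were computed in Python 3.11.15 with pandas 2.3.3 and numpy 2.4.6. limma 3.58.1 in R 4.3.3 (trend, robust) fitted all 14 libraries after the 10% of regions of lowest mean were left out, with the 3 comparisons without Early as tests. The fit and the rule were checked on simulated data. Members, lists and tests were chosen with earlier results of these data known. The 18 regions named per comparison are the called members without overlap of largest log2 fold change, 3 higher and 3 lower; the others are the 8 largest margins, 6 highest means, 3 widest, 3 just inside, 3 just outside and the densest 100 kb. Gene lists, motifs and cell type markers of the planned design needed an mm9 annotation and were not run.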

Additional observations from a re-analysis of the deposited data

Results flagged for a closer look

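Among 106 sets of 4 libraries looked at (Basal and Late at each named region, and 2 library measures), 4 had 1 library far from the other 3 by Dixon's ratio; chance gives about 1 in 20. At chr19:4231549-4232136 Basal replicate 1 stood at a scaled value of 1.06, with the nearest Basal library at 1.39. At chr12:101437279-101440605, the widest member, Late replicate 1 stood at 1.17 with the next at 1.50, which sets the narrow margin of that region. At chr1:193176772-193177037 Late replicate 1 stood at 0.687 with the next at 1.22. At chr16:17233132-17235838 Late replicate 3 stood at 0.581 with the next at 0.782. Early replicate 3, the highest Early library there, also rounded to 0.581, and these libraries together kept the region just outside the members.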

How the results depend on the processing

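The number of regions lowest in Early, 3320, was 1254 on deposited RPKM, 763 with a minimum of 2 RPKM, 735 with a margin of at least 1.25 and 6013 with Late averaged to 1 sample (1 in 165 then, or 1001 regions). The minimum of 2 RPKM also leaves fewer eligible regions. Members were 3.16% of those at 2 to under 3 RPKM, 3.36% at 3 to under 4 and 0.763% from 4 up, against 2.01% of all eligible regions. Averaging Late or leaving out 1 library can only add regions, as each member still meets the rule, and equal orders then also give more. Leaving out 1 library gave 3411 to 6692. Without Early replicate 1, 2 or 3 it was 5028, 6692 or 5906, where 1 in 78, or 2118, would fall in that order. Members called in Late against Basal, 422 (12.7%, against 30.7% of all regions), were 133 on deposited RPKM (4.01%, against 30.0%). The replicate block gave 282 (8.49%, against 27.3%). Leaving out 1 library gave 214 to 507 (6.45% and 15.3%, against 22.4% and 31.4% of all regions in those fits). For Reactivated against Basal, 125, they were 532 on deposited RPKM, 81 after quantile normalization, 43 with the replicate block, 0 with the in-region read share as covariate, 45 with only the 2 groups, 40 with Late averaged, and 47 to 148 without 1 library (52, 55 and 73 without Basal replicates 2, 3 and 4, and 75, 76 and 47 without Reactivated replicates 1, 2 and 3). For Reactivated against Late, 9 (0.271%, against 1.06%), they were 15 with a pseudocount of 1 (0.452%, against 1.04%) and 15 with no filter (0.452%, against 1.11%). Deposited RPKM gave 3 (0.0904%, against 0.231%), the replicate block 0 (all regions 0.0749%) and only the 2 groups 79 (2.38%, against 3.78%). Leaving out 1 library gave 0 to 41 (all regions 0.0651% and 2.15% in those fits). Averaging Late leaves fewer samples; for the other settings the cause was not tested. The 18 regions named per comparison kept their direction in all 432 evaluations and their call in 355. Replicate numbers did not pair the libraries: deviations from group means of same-numbered libraries correlated at -0.26 to 0.06 (19 pairs). The near minus far difference of neighbours, -0.55, was -0.58 to -0.50 without 1 Early library. Members with Late the lowest of the other 3 group means, 2230, were 870 on deposited RPKM and 1897 to 2365 without 1 library. They were 2112 after median-of-ratios scaling and 1836 after quantile normalization. The alternatives of both results were chosen after seeing the data. Depth limits single regions most at the 292 members with under 10 reads in an Early library.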
